A study of Mus musculus with 12 samples.

Results

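Ribosome-protected footprints were compared between hearts in which the X-linked RNA helicase gene Ddx3x was deleted in heart muscle cells and control hearts, at embryonic day 10.5 of the mouse. The footprint libraries were 6 of the 12 libraries of the series, 3 from CM-KO and 3 from WT hearts, and the other 6 were RNA libraries of the same pools, used here only as context. CM-KO is the label of the Ddx3x CM-KO genotype, for which carcasses were typed for Ddx3x and for Tnnt2-Cre, a recombinase driven by the promoter of the cardiac troponin T gene. WT is the label of Ddx3x fl/fl hearts, which carry floxed alleles and are therefore not free of engineered sequence. Whether WT embryos also carried the Cre is not stated in those labels. All embryos are labelled female, each pool joined 20 hearts, and the pools are separate sets of hearts. Genes entered if the deposited table held a value for them in all 6 pools, which was true of 17165 of 21783 genes, and 15249 of these passed the filter on low counts and were tested.

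A footprint is the stretch of mRNA that a ribosome shields from nuclease, so the number of footprints on a gene follows both how much of its mRNA is present and how densely ribosomes occupy it. DDX3X unwinds RNA during translation initiation, and at this stage the looped heart tube is forming trabeculae while its muscle cells already beat. The libraries hold no external standard. Footprint levels are therefore shares of all footprints, and the total rate of protein synthesis was not measured. The hearts were whole, with endocardium, blood and other cells that keep Ddx3x.

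The footprint libraries held 7.31 to 14.3 M counts in genes. Protein-coding genes took 91.9 to 95.4% of the counts in each, and the most abundant gene in every library was Rmrp, a non-coding RNA, with 6.95, 5.72 and 3.69% in CM-KO pools 1 to 3 and 5.03, 5.28 and 6.31% in WT pools 1 to 3. With 3 pools a genotype the biological coefficient of variation was 12.3%, and the 95% confidence interval of a gene's log2 fold change reached a median of 0.32 to either side. Reads of Y-linked genes were present in libraries labelled female. Eif2s3y, a Y-linked gene, gave 70 and 63 footprint counts in CM-KO pools 1 and 2, and it was blank in CM-KO pool 3 and in all WT pools, where a blank hides at most 10 counts. Y-linked Uty gave 39, 32 and 6 counts in the CM-KO libraries in order of number, and no WT library listed a count for it. For Kdm5d, also Y-linked, only the first 2 CM-KO libraries listed counts, 32 and 55. Results for part of the genes are therefore given also without CM-KO pools 1 and 2. That fit sets the remaining CM-KO pool against 3 WT pools and assumes that it varies as the WT pools do. The remaining CM-KO pool holds the 6 Uty counts, so it is not free of Y-linked reads. The part of these Y-linked reads in the results was not tested.

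Ddx3x itself (chromosome X, 13146705 to 13160293, GRCm39) had footprints at 559, 533 and 492 CPM in CM-KO pools and at 617, 673 and 609 CPM in WT pools. CPM here and below are counts scaled to library size and by TMM, a normalization that centres most genes. Reads of Ddx3x and its Y-linked copy Ddx3y may be shared by the authors' counting, and Ddx3y gave 69, 75 and 24 footprint counts in CM-KO pools and 15, 21 and 19 in WT pools. Every CM-KO pool lay below every WT pool, yet the log2 fold change of -0.26 (SE 0.08, 95% confidence interval -0.44 to -0.08) did not pass (adjusted p = 0.35 by the quasi-likelihood test of edgeR, Benjamini-Hochberg over all genes, and adjusted p = 0.127 with the pool number as a block). Markers of heart muscle were at high levels in both genotypes. Footprints of the cardiac actin gene Actc1 averaged 15111 ± 1781 CPM in CM-KO and 13199 ± 314 CPM in WT hearts (SD, n = 3 each). Among the 7 cardiomyocyte markers set for this check (Tnnt2, Actc1, Myh6, Myh7, Myl7, Nppa and Ttn) log2 fold changes ran from -0.32 for Ttn to 0.64 for Nppa, and 0 of 7 were called (2 at an unadjusted p under 0.05, Tnnt2 and Nppa, both higher, and 1 in DESeq2).

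Most of the footprint profile was close between the genotypes. The median log2 fold change over the 15249 genes was -0.01 with an SD across genes of 0.26, 93.0% of genes lay within 0.5 of 0, and 83 genes lay past 1 in either direction. The threshold for a call was an adjusted p under 0.05. Of 15249 genes 35 were called, 0.23% of those tested, with 13 higher in CM-KO (0.0853%) and 22 lower (0.144%), and 9 of the 35 also passed a log2 fold change of 1 (0.059%). At an unadjusted p under 0.05 there were 1351 genes (8.86%). CM-KO and WT pools were fully separated for 2255 genes (14.8%), 1180 higher (7.74%) and 1075 lower (7.05%).

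Deviations of same-numbered pools from their group means correlated by 0.48, 0.23 and 0.13 for numbers 1, 2 and 3. CM-KO pool 2 correlated more with WT pool 3 (0.31), and the labels do not state that numbers mark pairs. The pool number was thus taken as a block from these same data, and the p-values of that fit rest on this choice. With the block the fit called 203 genes (1.33%), 118 higher (0.774%) and 85 lower (0.557%) in CM-KO. The 203 held all 35. Each of the 203 had the same sign without the block, which adds no support, since the block barely moves a log2 fold change. CM-KO and WT pools were fully separated for 189 of them, against 14.8% of all genes tested. Choosing genes by p on the same counts favours such separation. The direction of the balance thus differed between the fits, with 37.1% of calls higher without the block and 58.1% with it, and it was 57.3% of 171 calls in DESeq2 (1.49% of the 11500 genes it tested). By the same threshold the authors' deposited table holds 152 footprint changes (88 upward, 64 downward), and all 35 are among them with the same sign. Without CM-KO pools 1 and 2, 54 of 16091 genes were called (0.336%) and 20 of the 35 were among them. The calls leaned on single pools, with 1 gene called without WT pool 2, 4 without CM-KO pool 3, 5 without WT pool 3 and 94 without CM-KO pool 1. Cdkn1a alone among the 35 passed with each pool left out in turn.

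**Figure D1:**
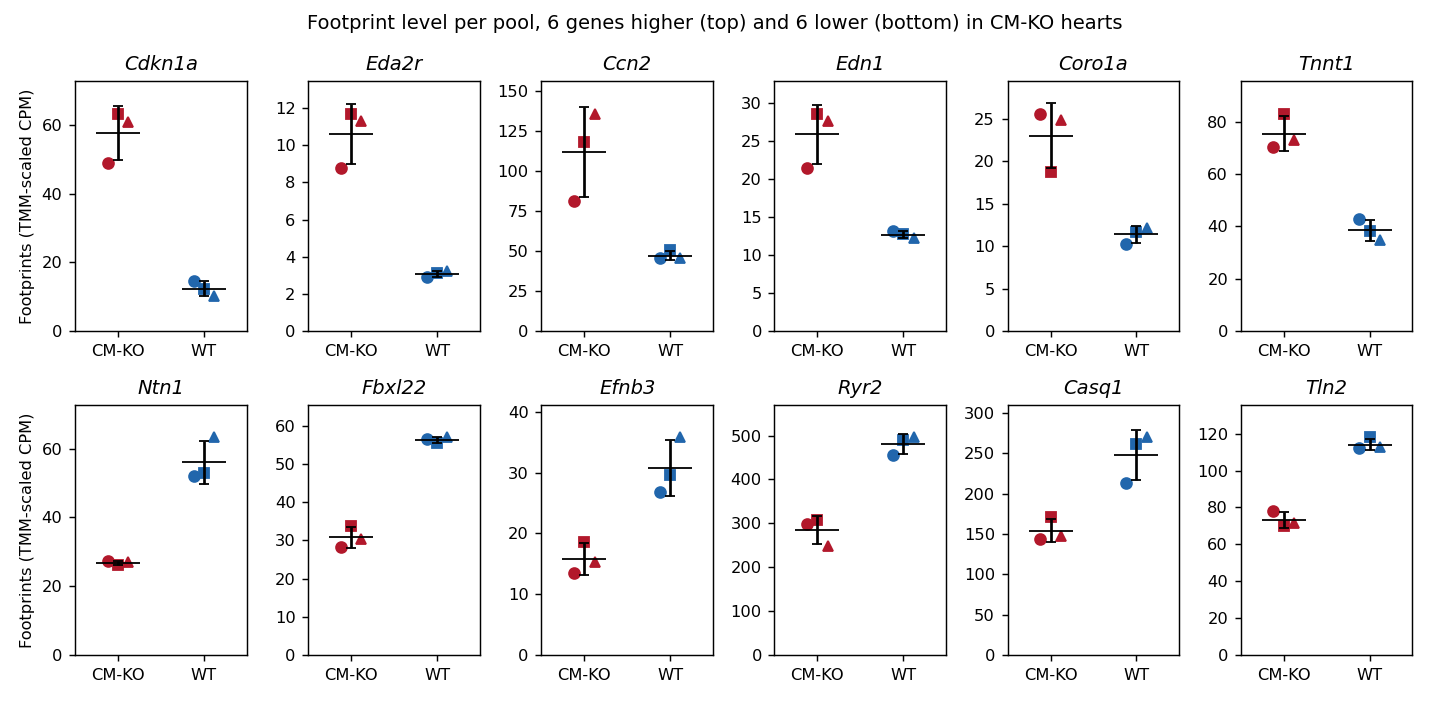
Footprint level (TMM-scaled CPM, axes from 0) in the 3 CM-KO pools (red, left) and the 3 WT pools (blue, right) for 6 genes higher in CM-KO in the upper row and 6 lower in the lower row. Circles, squares and triangles are pools 1, 2 and 3, and the bar is the mean with its SD. In each of the 12 panels CM-KO and WT pools are fully separated, as for Cdkn1a at 48.9 to 63.3 CPM in CM-KO and 10.2 to 14.6 CPM in WT.

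The gene with the largest call was Cdkn1a (chromosome 17, 29309936 to 29319701), which encodes p21, an inhibitor of cyclin-dependent kinases and a classic target of the stress-activated transcription factor p53. Its footprints stood at 48.9, 63.3 and 61.0 CPM in CM-KO pools, against 14.6, 12.2 and 10.2 CPM in WT pools. The lowest CM-KO pool was thus well above the highest WT pool, and the change was 4.69-fold (log2 fold change 2.23, SE 0.15, adjusted p = 0.000948, edgeR). Without CM-KO pools 1 and 2 it was 2.31 (adjusted p = 0.00288). Eda2r (chromosome X, 96320270 to 96420847), a p53-induced receptor of the TNF family, was at 8.76, 11.7 and 11.3 CPM in CM-KO pools and at 2.90, 3.13 and 3.24 CPM in WT pools (log2 fold change 1.78, adjusted p = 0.011). These are low levels, resting on 69 to 159 counts per CM-KO pool and 23 to 36 counts per WT pool.

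Footprints of a death receptor and a cyclin on the p53 list rose as well. Tnfrsf10b (chromosome 14, 70004916 to 70021860), the mouse TRAIL receptor, was at 25.8, 30.0 and 27.8 CPM in CM-KO pools and at 12.2, 16.6 and 15.8 CPM in WT pools (log2 fold change 0.91, adjusted p = 0.0315). Ccng1 (chromosome 11, 40639377 to 40646148), cyclin G1, was at 55.7, 65.9 and 59.8 CPM in CM-KO pools and at 33.5, 38.9 and 40.2 CPM in WT pools (log2 fold change 0.69, adjusted p = 0.0315). Both genes kept their direction without CM-KO pools 1 and 2 but no longer passed (adjusted p = 0.0915 for Tnfrsf10b and 0.0726 for Ccng1). In all 4 of 30 p53 targets rose without the block, 8 with it and 8 in DESeq2, none fell in these fits, and the list median was 0.34 beside -0.01 over all genes. Calls upward made up 0.0853% of all genes tested without the block and 0.774% with it. DESeq2 called 1.49% of the genes it tested, either way. Sesn2, a stress-induced inhibitor of growth signalling, was called with the block and in DESeq2 (log2 fold change 0.95, adjusted p = 0.0162 with the block, 0.00336 in DESeq2 and 0.114 in edgeR without the block). Footprints of 19 of the 30 were higher in CM-KO in all 3 pairs of pools with the same number (63.3%, against 16.8% of all genes tested). Such list percentages, here and below, describe the lists and are no test. Lists and members were chosen with earlier results of these data known, and genes read in the same pools are not replicates. The 30 genes held 0.0871 ± 0.00359% of footprint counts in CM-KO and 0.0699 ± 0.00157% in WT hearts (SD, n = 3 each).

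The list of heart growth factors and hormones gave 2 calls upward. Ccn2 (chromosome 10, 24471333 to 24474900), a matricellular protein induced by stretch and by TGF-beta, was at 81.6, 118 and 136 CPM in CM-KO pools and at 45.5, 50.5 and 45.9 CPM in WT pools (log2 fold change 1.25, adjusted p = 0.0315). Edn1 (chromosome 13, 42446301 to 42461466), which encodes the vasoactive peptide endothelin, was at 21.5, 28.6 and 27.7 CPM in CM-KO pools and at 13.2, 12.8 and 12.2 CPM in WT pools (log2 fold change 1.03, adjusted p = 0.0207). CM-KO pool 1 was the lowest of its group for both. Of its 23 tested members these were the calls without the block, 5 rose with it, and the list median was 0.22. DESeq2 called 5 of the 23, all higher. Of all genes tested 0.0853% were called higher without the block and 0.774% with it, and DESeq2 called 1.49% either way. The genes of the natriuretic peptides, hormones that the myocardium makes under load, missed the threshold in edgeR with all 6 pools and no block. They passed with the block and in DESeq2. Nppa was at 903, 1122 and 1119 CPM in CM-KO pools and at 658, 620 and 743 CPM in WT pools (log2 fold change 0.64, adjusted p = 0.0732, 0.00571 with the block and 2.59e-06 in DESeq2). Its log2 fold change was 0.73 without CM-KO pools 1 and 2. Nppb was at 97.0, 141 and 150 CPM in CM-KO pools and at 71.1, 64.9 and 74.1 CPM in WT pools (log2 fold change 0.88, adjusted p = 0.0732, 0.00826 with the block and 2.6e-06 in DESeq2). Its log2 fold change was 1.09 without CM-KO pools 1 and 2.

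Other genes with higher footprints belonged to muscle, blood and epithelium or had general roles. Tnnt1, troponin T of slow skeletal muscle, averaged 75.5 ± 6.71 CPM in CM-KO and 38.6 ± 4.04 CPM in WT hearts (SD, n = 3 each, log2 fold change 0.97, adjusted p = 0.00786, edgeR). Coro1a, an actin regulator of blood cells, averaged 23.0 ± 3.81 CPM in CM-KO and 11.4 ± 1.01 CPM in WT hearts (log2 fold change 1.01, adjusted p = 0.0315). Blood genes as a group are taken up further on. Bcr, a regulator of small GTPases, had a log2 fold change of 0.71 (adjusted p = 0.0226), and Krt8, a keratin of simple epithelia, one of 0.50 (adjusted p = 0.0315). Azin1, which spares the polyamine enzyme ornithine decarboxylase from degradation, was at 185, 203 and 192 CPM in CM-KO pools and at 137, 138 and 143 CPM in WT pools (log2 fold change 0.48, adjusted p = 0.0315). Its RNA had a log2 fold change of 0.09 (adjusted p = 0.688), and its footprint-to-RNA ratio was not called (change of 0.40, adjusted p = 0.411).

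Among the genes with called falls were some that encode secreted and membrane proteins, most of them in none of the 29 lists. Ntn1 (chromosome 11, 68100190 to 68291662), the guidance cue netrin 1, was at 27.2, 26.2 and 26.9 CPM in CM-KO pools and at 52.0, 53 and 63.3 CPM in WT pools. The CM-KO pools were nearly level, and the gene fell by 1.07 on the log2 scale (SE 0.10, adjusted p = 0.00509, edgeR). Pcsk6 (chromosome 7, 65511482 to 65700134), a convertase that activates TGF-beta family precursors, was at 16.9, 11 and 11.2 CPM in CM-KO pools and at 27.9, 25.3 and 28.2 CPM in WT pools (log2 fold change -1.08, adjusted p = 0.037). Scube2, a secreted protein that helps release Hedgehog ligands, fell by 1.04 (adjusted p = 0.0364), and Efnb3, a membrane-bound ephrin, by 0.96 (adjusted p = 0.0395). Emp2, a 4-pass membrane protein, fell by 0.79 (adjusted p = 0.0483). Ntn1 was the only call among 30 guidance and adhesion genes tested (list median -0.05) and Pcsk6 the only one among 26 genes of precursor and secretory processing (list median 0.00), with or without the block.

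Calcium handling and excitation gave calls downward in CM-KO hearts. Ryr2 (chromosome 13, 11567988 to 12121870), the channel that releases calcium from the sarcoplasmic reticulum to start contraction, was at 298, 307 and 248 CPM in CM-KO pools and at 456, 491 and 496 CPM in WT pools (log2 fold change -0.76, SE 0.09, adjusted p = 0.0207, edgeR). Its RNA was at 1867 ± 134 CPM in CM-KO and 1492 ± 68.5 CPM in WT hearts (SD, n = 3 each, log2 fold change 0.32, adjusted p = 0.0562). Casq1 (chromosome 1, 172037459 to 172049328), which encodes calsequestrin, the calcium-binding protein of that store, was at 144, 171 and 147 CPM in CM-KO pools and at 213, 262 and 270 CPM in WT pools (log2 fold change -0.69, adjusted p = 0.043). For these genes no CM-KO pool reached a WT pool. Atp2a2, the pump that refills the store, was at 1740, 1923 and 1756 CPM in CM-KO pools and at 2435, 2752 and 2866 CPM in WT pools (log2 fold change -0.57, adjusted p = 0.0609, 0.00633 with the block and 2.31e-07 in DESeq2). Casq2, the cardiac calsequestrin, had a log2 fold change of -0.72 (adjusted p = 0.139 in edgeR, 0.0492 with the block and 0.0367 in DESeq2), and without the block it passed in 1 of the 6 fits that leave out a pool. Log2 fold changes without CM-KO pools 1 and 2 were -0.95 for Ryr2, -0.75 for Casq1, -0.61 for Atp2a2 and -0.99 for Casq2. RNA log2 fold changes were -0.55 for Casq1 (adjusted p = 0.00614, edgeR), -0.55 for Casq2 (adjusted p = 0.0609) and 0.38 for Atp2a2 (adjusted p = 0.0253). The footprint-to-RNA ratio was called lower for Ryr2 (-1.07, adjusted p = 0.00116) and Atp2a2 (-0.93, adjusted p = 0.0025). For Casq1 and Casq2 it changed by -0.13 and -0.15 (adjusted p = 0.999 each). Of 25 calcium-handling genes tested 2 fell and 0 rose without the block, 4 fell and 1 rose with it, 4 fell in DESeq2, and the list median was -0.08. Calls downward made up 0.144% of all genes tested without the block and 0.557% with it, and DESeq2 called 1.49% either way. The calcium list held 0.786, 0.816 and 0.777% of footprint counts in CM-KO pools and 0.891, 0.958 and 0.967% in WT pools (exact permutation over pools, p = 0.1, adjusted p = 0.242).

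Genes of ion channels and cell junctions, which carry the action potential from cell to cell, gave calls downward as well. The pacemaker channel gene Hcn4 (log2 fold change -0.53, adjusted p = 0.135, 0.0113 with the block and 0.0237 in DESeq2) and the connexin gene Gja5 of fast conduction (-0.54, adjusted p = 0.114, 0.00881 with the block and 0.00272 in DESeq2) passed with the block and in DESeq2 but not in edgeR with all 6 pools and no block. Without CM-KO pools 1 and 2 neither passed (adjusted p = 0.497 for Hcn4 and 0.227 for Gja5). Of 25 channel and junction genes 1 fell without the block, 4 with it and 4 in DESeq2, 0 rose in any of these fits, and the list median was -0.22. Among all genes tested 0.144% were called lower without the block and 0.557% with it, and DESeq2 called 1.49% either way. Footprints of 13 of the 25 were lower in CM-KO in all 3 same-numbered pairs (52.0%, against 18% of all genes tested). The list held 0.473 ± 0.0245% of footprint counts in CM-KO and 0.564 ± 0.0174% in WT hearts (SD, n = 3 each, exact permutation over pools, p = 0.1, adjusted p = 0.242). Its members' RNA had a median log2 fold change of 0.05.

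Footprints of several muscle genes were lower too, 2 of them on the list of muscle ubiquitin ligases and the others in none of the 29 lists. Fbxl22 (chromosome 9, 66415657 to 66421912), an F-box protein of the Z-disc, was at 28.3, 33.7 and 30.3 CPM in CM-KO pools and at 56.7, 55.5 and 57.0 CPM in WT pools (log2 fold change -0.87, adjusted p = 0.00625, edgeR). Klhl31, a kelch protein of striated muscle, averaged 46.3 ± 1.67 CPM in CM-KO and 69.8 ± 2.36 CPM in WT hearts (SD, n = 3 each, log2 fold change -0.59, adjusted p = 0.0198). These were the 2 called among 14 muscle ubiquitin ligase genes tested (list median -0.22, 0 called upward, the same counts with the block). Calls downward made up 0.144% of all genes tested without the block and 0.557% with it. Tln2, a talin that ties integrins to actin, was at 78.2, 69.7 and 71.4 CPM in CM-KO pools and at 112, 118 and 113 CPM in WT pools (log2 fold change -0.64, adjusted p = 0.0126). The scaffold gene Homer2 (-0.68, adjusted p = 0.0207), the junctional protein gene Pgm5 (-0.50, adjusted p = 0.0224) and the fast-muscle myosin light chain Mylpf (-0.77, adjusted p = 0.0349) fell as well.

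The contractile apparatus itself did not move one way. Of 38 sarcomere genes tested 1 fell, Smpx, a small muscle protein of the costamere (log2 fold change -0.46, adjusted p = 0.0395, edgeR), and 0 rose. With the block 2 fell and 1 rose, in DESeq2 2 fell and 3 rose, and the list median was -0.03. Myl2, the ventricular myosin light chain, was at 1861, 2072 and 1680 CPM in CM-KO pools and at 3134, 2742 and 2715 CPM in WT pools (log2 fold change -0.61, adjusted p = 0.0732, and 0.0068 with the block). Ankrd1, a stretch-responsive protein of the sarcomere and nucleus, was the 1 that rose with the block (0.47, adjusted p = 0.159, and 0.0394 with the block). The sarcomere list held 5.10, 5.76 and 5.54% of footprint counts in CM-KO pools and 6.17, 5.78 and 5.37% in WT pools, so the pools overlapped. Beside the falls of calcium and channel genes, the heart muscle markers ran from -0.32 to 0.64 as given above. In the same pools red cell genes held 6.94 to 8.98% of footprint counts in CM-KO and 4.75 to 5.77% in WT hearts, and the part of cell composition in the muscle results was not tested.

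The other genes with called falls had metabolic, signalling or further roles. Pdk1 (chromosome 2, 71703488 to 71734202), a kinase that shuts pyruvate out of the mitochondrial cycle, was at 52.1, 52.8 and 56.6 CPM in CM-KO pools and at 90.6, 78.7 and 73.5 CPM in WT pools (log2 fold change -0.59, adjusted p = 0.0395, edgeR). It was the 1 call among 25 genes of glucose use, with a list median of 0.11. With the block 3 fell, the other two being the insulin-responsive glucose transporter gene Slc2a4 (-0.81, adjusted p = 0.0123 with the block, against 0.106 without it) and the lactate transporter gene Slc16a1 (-0.34, adjusted p = 0.0334 with the block, against 0.344 without it). Lpar3, a receptor for lysophosphatidic acid, fell by 0.79 (adjusted p = 0.0315), the depalmitoylating enzyme gene Abhd17c by 0.55 (adjusted p = 0.0315) and the Groucho-family corepressor gene Tle5 by 0.54 (adjusted p = 0.0364). Mov10l1, an RNA helicase gene, fell by 0.93 (adjusted p = 0.0224), and the endosomal membrane protein gene Entrep1 by 0.69 (adjusted p = 0.0256).

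The called genes were set beside their RNA. RNA was called for 750 of 17147 genes (4.37%), 612 higher (3.57%) and 138 lower (0.805%). Of the 13 genes with higher footprints 11 had RNA called in the same direction, Azin1 being among the exceptions, and 13 of 13 had an RNA value of the same sign. The footprint-to-RNA ratio, tested in 1 model over both assays by an interaction term, was called for 0 of these 13 (3 at an unadjusted p under 0.05), beside 128 of 15231 genes (0.84%). Of the 22 genes with lower footprints 10 had RNA called lower, 10 had no RNA call, and 2, Entrep1 and Pdk1, had RNA called higher, with 16 of 22 RNA values of the same sign. The footprint change was larger than the RNA change in 13 of the 13 rises and 18 of the 22 falls, which the choice of genes by their footprints favours. Because the ratio holds the same footprint counts, choosing genes by lower footprints favours a lower ratio as well. It was called lower for 6 of the 22, against 127 of all genes lower (0.834%) and 1 higher (0.00657%). With the pool as a block it was called lower for 8 of the 22, against 226 calls among all genes (1.48%), 219 lower (1.44%) and 7 higher (0.046%). Whether the rises and the falls differ in this respect was not tested.

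Genes whose ratio was called show how far footprints and RNA parted. Entrep1 RNA was at 92.8 ± 12.1 CPM in CM-KO and 64.2 ± 1.92 CPM in WT hearts, while its footprints were at 18.8 ± 0.798 CPM in CM-KO and 30.4 ± 1.69 CPM in WT hearts (SD, n = 3 each). The ratio changed by -1.21 on the log2 scale (adjusted p = 0.000322, edgeR). Pdk1 RNA was at 202 ± 18.7 CPM in CM-KO and 146 ± 18.6 CPM in WT hearts, and its ratio changed by -1.04 (adjusted p = 0.00116). For Ryr2 the change of the ratio was -1.07 (adjusted p = 0.00116), for Lpar3 -0.97 (adjusted p = 0.00689) and for Abhd17c -0.75 (adjusted p = 0.00577). Homer2 was among those that joined when the pool was a block (-0.59, adjusted p = 0.0702, and 0.0317 with the block). By contrast Fbxl22, Klhl31, Mylpf and Smpx fell in footprints and RNA alike, with ratio changes of 0.05 to 0.22 and adjusted p = 0.999 each, and Ntn1 fell by 1.07 in footprints and by 0.57 in RNA.

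**Figure D2:**
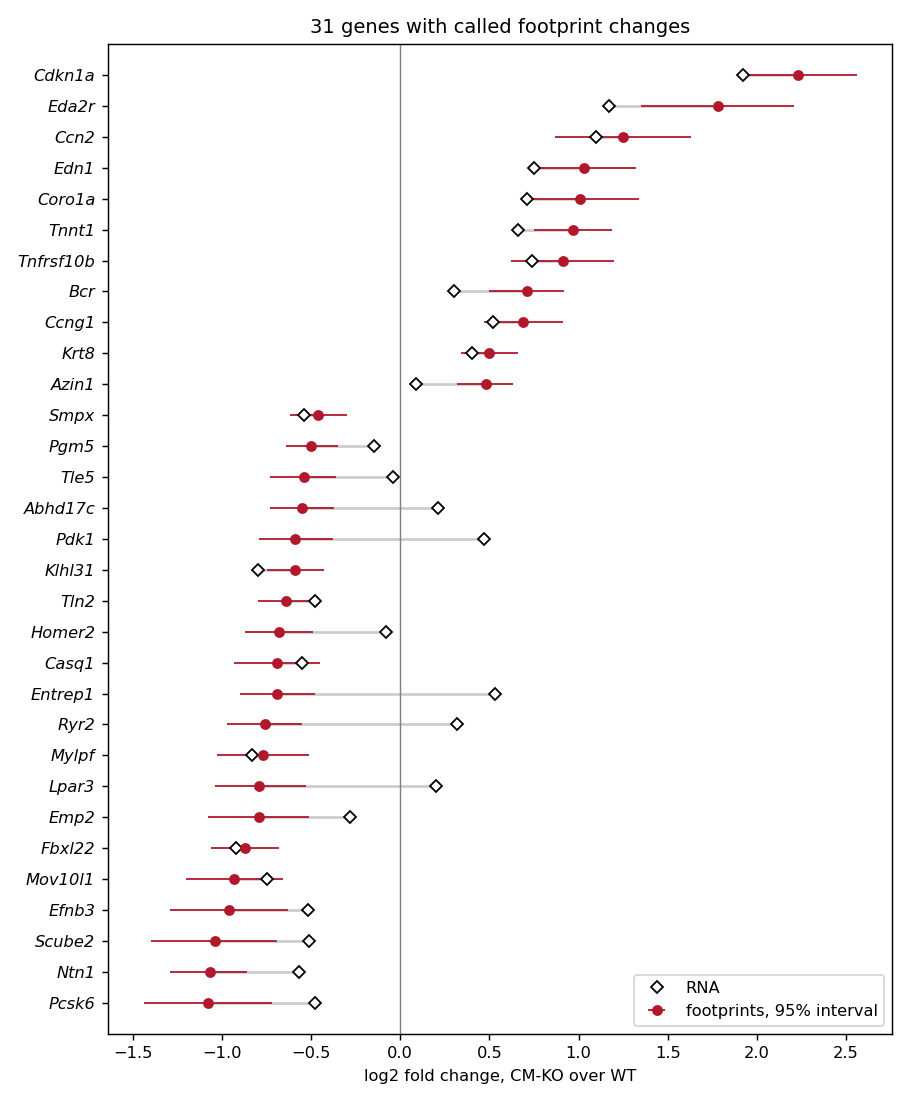
Log2 fold change, CM-KO over WT, of 31 of the 35 genes called in footprints. Red points are footprints with their 95% confidence interval, open diamonds are RNA, and a grey line joins the values of a gene. For the rises, from 0.48 (Azin1) to 2.23 (Cdkn1a), the RNA value lies nearer 0 on the same side, while for Ryr2, Pdk1, Entrep1, Lpar3 and Abhd17c the RNA value lies on the other side of 0.

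The bases around the start codon, where a scanning ribosome begins, were read for the called genes from GENCODE vM39 on GRCm39, with 1 canonical transcript per gene. A start codon is recognised best with a purine 3 bases before the ATG and a G directly after it. The windows below run from 9 bases before the ATG to its codon and the 9 bases after it, with those 2 positions and the ATG in capitals, and are shown for 3 genes that rose and 3 that fell. They were chosen with their values known, Ryr2 and Entrep1 because their ratio to RNA was called as well, and Entrep1 also for the base before its ATG.
Cdkn1a: acaggcAccATGTccaatcct
Eda2r: tttttcAtcATGGattgtcaa
Edn1: ctttgcAgaATGGattatttt
Ntn1: ggccacAgcATGAtgcgcgct
Ryr2: cgcggaGccATGGctgatgcg
Entrep1: cgcgcgCccATGTctctgccg
The ATG of these genes lies at chr17:29317382-29317384 for Cdkn1a (plus strand), chrX:96405451-96405453 for Eda2r (minus strand), chr13:42455371-42455373 for Edn1 (plus strand), chr11:68276944-68276946 for Ntn1 (minus strand), chr13:12121330-12121332 for Ryr2 (minus strand) and chr19:24008299-24008301 for Entrep1 (minus strand). A purine stood at the earlier position in 13 of 13 genes with higher footprints and in 19 of 22 with lower footprints, beside 87.2% of the 13652 coding genes tested that had a window. The G was present in 5 of 13 and 10 of 22, beside 52.8% of all. Entrep1 is 1 of the 3 called genes without the purine, and Ryr2 holds both bases.

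Of the 29 lists the erythroid one had the highest median. All 30 erythroid genes tested had log2 fold changes above 0, with a median of 0.60, and 28 of 30 were higher in CM-KO in all 3 same-numbered pairs (93.3%, against 16.8% of all genes). Without the block 1 was called, and with it 23 were, all higher, while DESeq2 without a block called 20. Among all genes tested 0.0853% were called higher without the block and 0.774% with it, and DESeq2 called 1.49% either way. The embryonic beta-globin gene Hbb-y was at 30132, 29545 and 36006 CPM in CM-KO pools and at 17195, 20554 and 23137 CPM in WT pools (log2 fold change 0.65, adjusted p = 0.135, and 0.00826 with the block). Alas2, the first enzyme of heme synthesis in red cells, was at 217, 257 and 305 CPM in CM-KO pools and at 146, 168 and 184 CPM in WT pools (log2 fold change 0.65, adjusted p = 0.114, and 0.00177 with the block). The transcription factor gene Tal1 (0.63, adjusted p = 0.0734, and 0.00826 with the block) followed the same course.

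Red cell genes together held 7.27, 6.94 and 8.98% of footprint counts in CM-KO pools and 4.75, 5.23 and 5.77% in WT pools. Every CM-KO pool was above every WT pool, and the difference of means was 2.48 percentage points (exact permutation test over pools, two-sided, p = 0.1, the smallest that 3 against 3 allows, adjusted p = 0.242 over 29 lists). Other lists reached the same p and adjusted p for a higher or a lower share. Among them were calcium handling, channels and junctions, p53 targets, initiation factors and cytosolic ribosomal proteins. In RNA libraries the red cell genes held 1.68% of counts in CM-KO and 1.35% in WT hearts on average. In whole hearts more blood cells and more globin mRNA or translation per blood cell cannot be told apart. Genes of platelets and macrophages stood beside them. Of 15 tested 14 had values above 0, 12 were higher in all 3 pairs (80.0%), 0 were called by edgeR without the block (6 at an unadjusted p under 0.05), 3 with it and 3 by DESeq2, and the median was 0.50. The platelet chemokine gene Pf4 was at 88.7, 52.3 and 66.2 CPM in CM-KO pools and at 36.3, 30.2 and 32.8 CPM in WT pools (log2 fold change 1.05, adjusted p = 0.0732, and 0.00145 with the block). Ppbp, a further platelet chemokine gene, had a log2 fold change of 1.01 (adjusted p = 0.252, and 0.00972 with the block) and the megakaryocyte integrin gene Itga2b one of 0.53 (adjusted p = 0.21, and 0.0198 with the block).

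**Figure D3:**
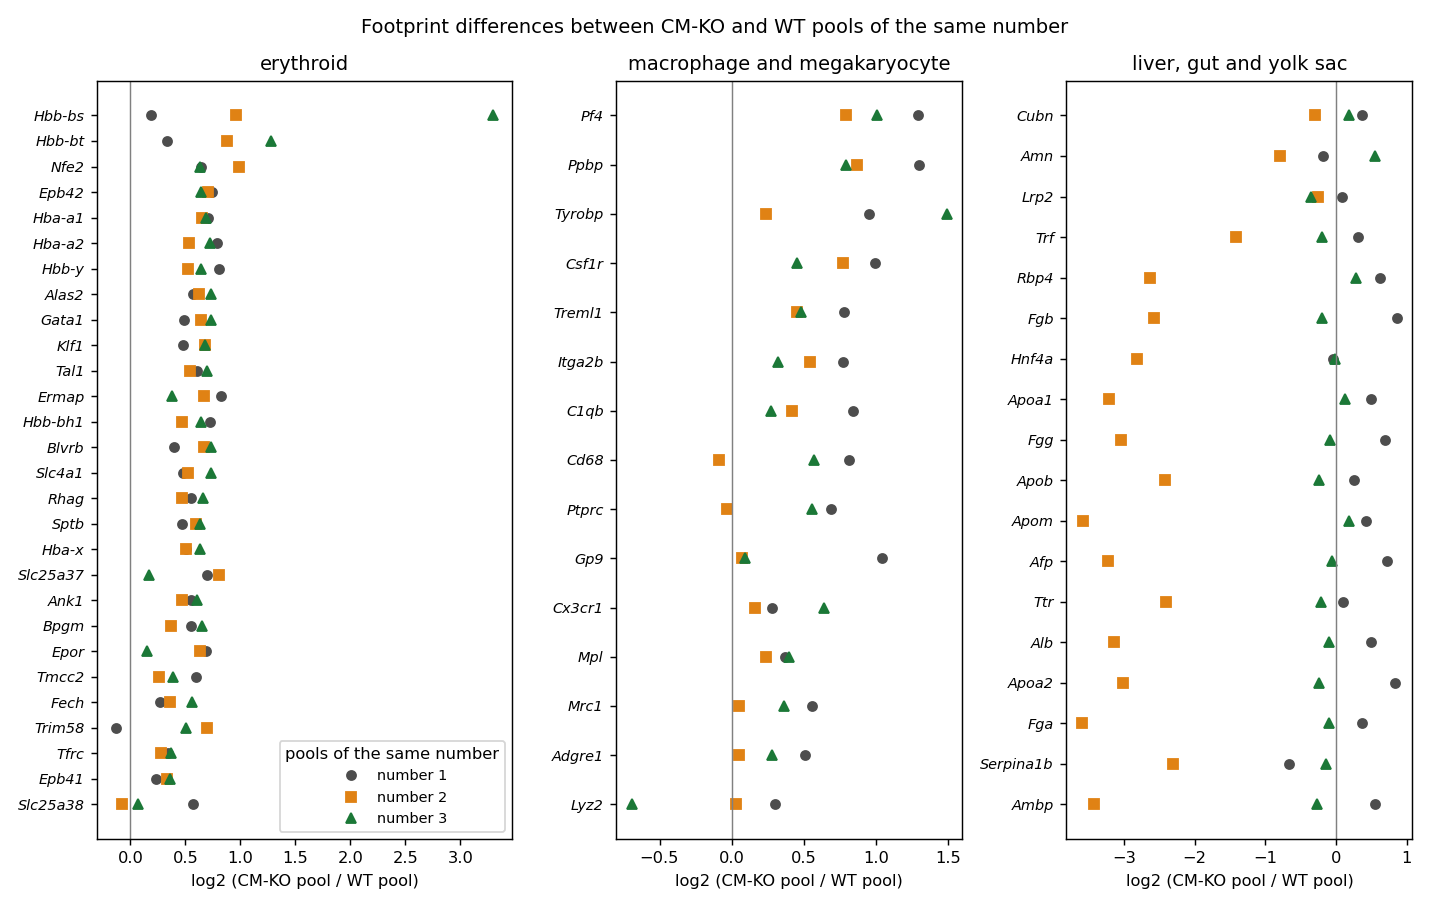
Log2 ratio of footprint levels of the CM-KO pool to the WT pool of the same number, for genes of 3 marker lists, with pool numbers 1 (grey circles), 2 (orange squares) and 3 (green triangles). Erythroid genes lie to the right of 0 in nearly all pairs (26 of the 28 shown in all 3), whereas the liver, gut and yolk sac genes lie far to the left for number 2 only, with a median of -2.72.

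Markers of neighbouring tissue varied between pools of the same genotype. The yolk sac and liver gene Afp was at 282, 106 and 1002 CPM in CM-KO pools and at 172, 998 and 1034 CPM in WT pools (log2 fold change -0.66, 95% confidence interval -3.69 to 2.37, adjusted p = 0.932, edgeR). Of 18 genes of liver, gut and yolk sac 0 were called by edgeR or DESeq2 and 0 had an unadjusted p under 0.05, with a median of -0.60. The list held 0.027 to 0.164% of footprint counts in CM-KO pools and 0.0428 to 0.173% in WT pools. Endocardial and endothelial genes had a median of 0.08 over 24, with 0 calls by edgeR without the block (2 at an unadjusted p under 0.05) or DESeq2 and 1 with the block, Emcn, the sialomucin endomucin (0.45, adjusted p = 0.0321 with the block, against 0.345 without it). Epicardial and mesenchymal genes had a median of 0.15 over 21, with Krt8 the 1 call in both fits. Neural crest and neuronal genes had a median of 0.06 over 12, with 0 calls by edgeR without the block (2 at an unadjusted p under 0.05, and 2 called by DESeq2) and, with it, the neuronal tubulin gene Tubb3 higher (0.47, adjusted p = 0.0339) and the endothelin receptor gene Ednrb lower (-0.52, adjusted p = 0.021).

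**Figure D4:**
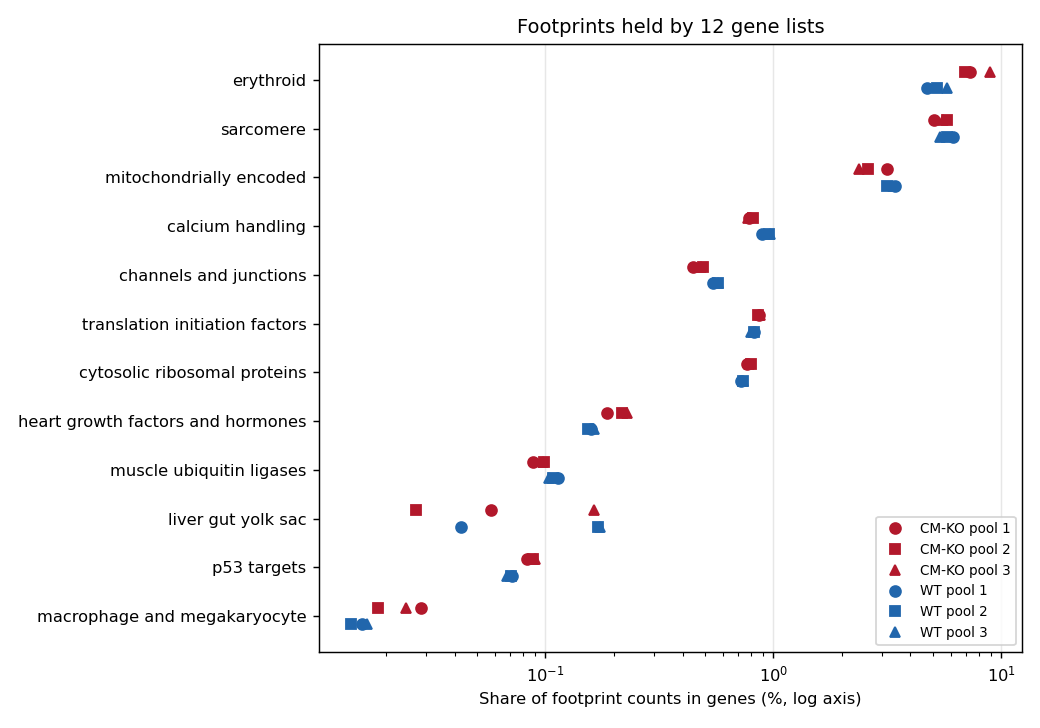
Share of all footprint counts in genes (percent, log axis) held by 12 gene lists in each CM-KO pool (red, upper row of each pair) and each WT pool (blue, lower row). Erythroid genes held 6.94 to 8.98% in CM-KO and 4.75 to 5.77% in WT pools, and calcium-handling genes 0.777 to 0.816% in CM-KO and 0.891 to 0.967% in WT pools, while the sarcomere shares overlap.

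Lists of the protein synthesis machinery had small median footprint differences, from 0.11 to 0.16. Higher in CM-KO in all 3 same-numbered pairs were 75.0% of elongation and termination factors, 75.0% of tRNA synthetases, 51.2% of initiation factors and 37.8% of cytosolic ribosomal protein genes, against 16.8% of all genes tested. Of 41 initiation factor genes, a list that includes Ddx3x, 0 were called by edgeR without the block (12 at an unadjusted p under 0.05, and 3 called by DESeq2), 37 had values above 0 and the median was 0.11. Values on this list ran from -0.43 to 1.54, and the highest equals the log2 fold change of Y-linked Ddx3y (1.54). With the block 3 rose, namely Eif5, which triggers GTP hydrolysis at the start codon (0.43, adjusted p = 0.0123, against 0.0732 without it), the helicase gene Eif4a1 (0.41, adjusted p = 0.0344, against 0.124) and Eif4g2, a scaffold of cap-independent initiation (0.52, adjusted p = 0.0449, against 0.152). Eif4g2 was at 777, 825 and 714 CPM in CM-KO pools and at 471, 512 and 634 CPM in WT pools, with an RNA log2 fold change of -0.02. The list held 0.865 ± 0.00886% of footprint counts in CM-KO and 0.814 ± 0.0159% in WT hearts (SD, n = 3 each, exact permutation over pools, p = 0.1, adjusted p = 0.242). Cytosolic ribosomal protein genes had a median of 0.16 over 74, with 66 above 0, 0 calls by edgeR in either fit, 13 at an unadjusted p under 0.05 and 3 called by DESeq2, all higher. They held 0.786 ± 0.0156% of footprint counts in CM-KO and 0.731 ± 0.00697% in WT hearts (exact permutation over pools, p = 0.1, adjusted p = 0.242). Their RNA had a median of -0.05. Reads of ribosomal protein genes and their pseudogenes, like those of globin genes, may be split or shared by the authors' counting. Elongation and termination factors had a median of 0.12 over 16 with 0 calls without the block (3 at an unadjusted p under 0.05, 1 by DESeq2), and Naca, a chaperone subunit at the ribosome exit, fell with the block (-0.33, adjusted p = 0.0415). The 20 tRNA synthetase genes tested all had values above 0 (median 0.15), with 0 calls without the block (7 at an unadjusted p under 0.05, 1 by DESeq2), and Nars, the asparagine enzyme, rose with the block (0.34, adjusted p = 0.0346).

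The lists of ATF4, cell cycle and matrix genes gave no edgeR call without the block and some with it. The ATF4 list, genes of the response to amino acid and translation stress, had a median of 0.23 over 31, with 0 calls by edgeR without the block (12 at an unadjusted p under 0.05), 4 rises with it and 4 by DESeq2. Atf4 itself was at 84.1 ± 17.2 CPM in CM-KO and 55.5 ± 6.02 CPM in WT hearts (SD, n = 3 each, log2 fold change 0.60, adjusted p = 0.186, and 0.0209 with the block). Its log2 fold change was 0.86 without CM-KO pools 1 and 2. Asns, asparagine synthetase (0.47, adjusted p = 0.0112 with the block), and Mthfd2, a mitochondrial folate enzyme (0.46, adjusted p = 0.0123 with the block), were the others with Sesn2, which the p53 list also holds. The list's share of footprint counts was 0.475 ± 0.0283% in CM-KO and 0.478 ± 0.0288% in WT hearts, a difference smaller than the spread between pools. Of 37 cell cycle genes 0 were called by edgeR without the block or DESeq2 (4 at an unadjusted p under 0.05, median 0.01) and 1 with it, Myc, a growth-promoting transcription factor (0.46, adjusted p = 0.00883, against 0.312 without it). Of 40 collagen and matrix genes 0 were called by edgeR without the block (2 at an unadjusted p under 0.05, 1 by DESeq2, median 0.09) and 1 with it, Col2a1, the fibrillar collagen of cartilage and cushions, at 252, 388 and 280 CPM in CM-KO pools and 488, 594 and 589 CPM in WT pools (-0.86, adjusted p = 0.00163 with the block, against 0.0858 without it).

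Several lists gave 0 calls by edgeR with and without the block and by DESeq2. Cardiac transcription factors had a median of -0.09 over 30, with 10 at an unadjusted p under 0.05, of which 9 were lower. Chaperones had a median of 0.08 over 29 (3 at that p), proteasome genes 0.04 over 36 (0), mitochondrial ribosomal protein genes -0.02 over 76 (3) and nuclear genes of the respiratory chain 0.00 over 80 (6). The 10 tested genes reported in other cells as sensitive to DDX3X had a footprint median of -0.10 (2 at that p, both lower), beside an RNA median of 0.32 with 4 RNA calls, all higher. Among them Ccnd2, cyclin D2, had a footprint log2 fold change of -0.23 (adjusted p = 0.418, edgeR) and an RNA log2 fold change of 0.59. Mitochondrially encoded genes had a footprint median of -0.21 over 8, with 0 calls by edgeR, 3 at an unadjusted p under 0.05 and 1 called by DESeq2, all lower, beside an RNA median of -0.83, and held 3.17, 2.60 and 2.38% of footprint counts in CM-KO pools and 3.43, 3.14 and 3.36% in WT pools. Irx1, a homeobox transcription factor of the ventricle, was at 4.06, 5.37 and 4.12 CPM of footprints in CM-KO pools and at 7.99, 6.66 and 8 CPM in WT pools (log2 fold change -0.74, adjusted p = 0.239), while its RNA was at 25.9 ± 4.16 CPM in CM-KO and 9.69 ± 0.706 CPM in WT hearts. A similar split was seen for the heat shock protein gene Hspa4l, with footprints at -0.36 (adjusted p = 0.307) and RNA at 0.62 (adjusted p = 0.00104).

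**Figure D5:**
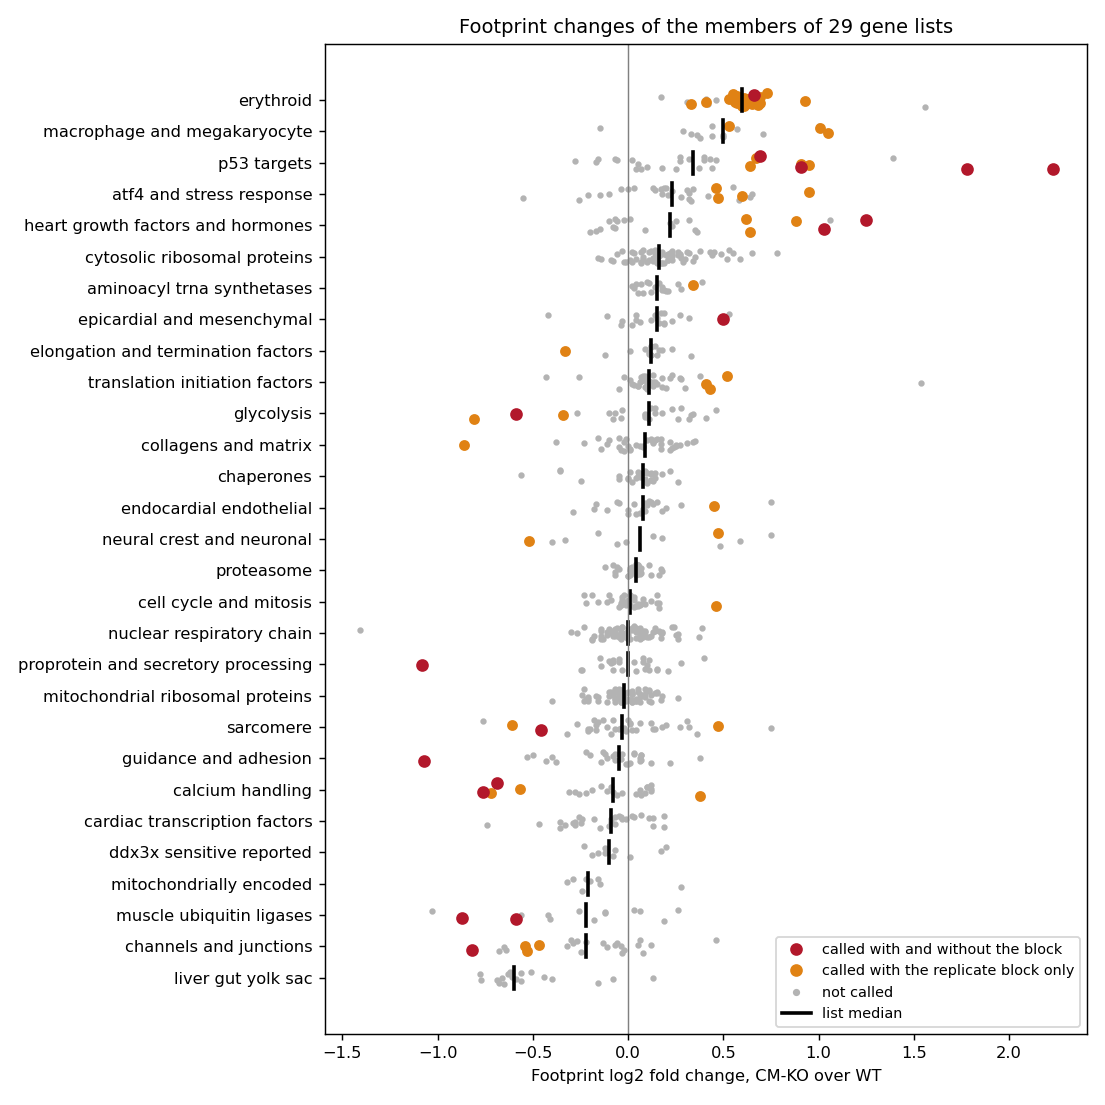
Footprint log2 fold change, CM-KO over WT, of every tested member of 29 gene lists, sorted by the list median (black bar). Red points are genes called with and without the pool number as a block, orange points those called only with it, and grey points those not called. The erythroid list (median 0.60) holds 22 orange points and 1 red point, while the 38 sarcomere genes (median -0.03) spread on either side of 0.

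Per unit of coding length, which allows genes to be ranked, the 10 densest genes by the mean of all pools were 3 embryonic globins, 3 contractile genes, 3 mitochondrially encoded genes and Tmsb4x. Density here is counts per coding length, scaled to the same sum in every library over 14633 coding genes. Hbb-y had a density of 84951 ± 7603 in CM-KO and 58852 ± 6111 in WT hearts (SD, n = 3 each), Hba-x, embryonic alpha-globin, 63806 ± 9162 in CM-KO and 47445 ± 4819 in WT hearts, and Hbb-bh1, a further embryonic beta-globin, 52067 ± 5231 in CM-KO and 37245 ± 3271 in WT hearts. Actc1 came next at 15662 ± 1062 in CM-KO and 15000 ± 1022 in WT hearts, within the spread between pools. The ranks 5 to 10, by the mean of all pools, were mt-Cytb, mt-Co1, Myl2, Myl7, mt-Nd6 and the actin-binding peptide gene Tmsb4x. Together the 10 leading genes held 24.8% of summed density in CM-KO and 19.7% in WT hearts. Called genes spanned a wide range of density, with Smpx at 298 ± 2.78 in CM-KO and 449 ± 25.8 in WT hearts, Cdkn1a at 142 ± 12 in CM-KO and 33.4 ± 7.37 in WT hearts, and Scube2 at 3.16 ± 0.725 in CM-KO and 6.96 ± 0.262 in WT hearts.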

How the data were processed

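Each pool of 20 hearts gave a footprint library, from 7.1 to 9 µg of RNA treated with RNase I, and an RNA library from 0.75 µg, per the labels' protocols. The authors' deposited table gives raw read counts per gene, built on mm39 by a provider with in-house software, per the labels' design text. Not given in the sources used here were the aligner, annotation, strand setting, counted part of the transcript and any molecular identifiers. The authors' RPM columns served to check totals. Log2 fold changes and p-values that the authors deposited, from DESeq2 per the file headers, were used for comparison, and 6 occupancy columns were not used. A pool's cells were blank unless the larger of its 2 counts was at least 11. Of the IDs 21594 were found in GENCODE vM39 and 189 were not, and 15 rows share 7 symbols.

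Counts were tested 3 against 3 with the quasi-likelihood test of edgeR 4.0.16 in R 4.3.3 (TMM, filterByExpr, robust fit, Benjamini-Hochberg over all genes tested), footprints and RNA apart, and the ratio as an interaction over 12 libraries. DESeq2 1.42.0 was an alternative. On simulated counts of 15249 genes the footprint fit called 16, 38, 47 and 48 of 50 genes at log2 changes of 0.5, 1, 1.5 and 2, with 7 false calls. Shares of counts were compared by exact permutation over pools. Members and the 29 lists were chosen with earlier results of these data known. Genes named are the called ones, Ddx3x, up to 4 per list by unadjusted footprint p, the cell type markers and the 10 densest. The labels give only pool numbers, and same-numbered pools' deviations from their group means correlated by 0.48, 0.23 and 0.13 over 11048 genes, so the numbers were taken as pairs from the data. CM-KO pool 2 correlated more with WT pool 3 (0.31). Some genes counted among the calls and lists are not reported here by name.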

Additional observations from a re-analysis of the deposited data

How the results depend on the processing

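The 35 footprint calls became 171 with DESeq2, 203 with the pool number as a replicate block (the pairing), 100 with all 12 libraries in the fit, 60 with upper quartile scaling, 54 with a mean count of at least 50, and 9 where a log2 change of 1 or more was also required. Of 2 settings chosen after seeing the data, dropping CM-KO pools 1 and 2 gave 54 (41 higher, 13 lower) and adding the Rmrp share of the library as a covariate gave 18 (7 higher, 11 lower). Leaving out 1 pool at a time gave 1 to 94. RLE scaling (36), no filter on low counts (35), blanks as 0 (33) and coding genes only (37) stayed within 1.5 times. The share of calls that were higher was 37.1%, 35% with upper quartile scaling, 44.0% with all 12 libraries, 57.3% with DESeq2, 58.1% with the block, 67.0% when CM-KO pool 1 was left out and 75.9% when CM-KO pools 1 and 2 were. None of the 35 genes changed sign under any setting run. All 35 kept their call with DESeq2, RLE and upper quartile scaling, coding genes only, the mean count limit and the block. Of them 34 kept it without the filter and with all 12 libraries, 33 with blanks as 0, and with 1 pool left out 32 (CM-KO pool 1), 20 (CM-KO pool 2), 3 (CM-KO pool 3), 29 (WT pool 1), 1 (WT pool 2) and 5 (WT pool 3). Of 231 recomputed share differences of the lists 224 moved by less than 1 SD between pools and 7 by more, and 11, in 5 lists, changed sign. With 3 pools a genotype the median interval half-width was 0.32 on the log2 scale, which is not the limit for a call. On simulated counts 16 of 50 genes were called at a log2 change of 0.5, and 38 of 50 at 1. Changes of 0.5 were thus mostly missed, and the lack of a call does not exclude a change of that size. Why the calls depend on single pools was not tested.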
